A study of Mus musculus with 10 samples.

Results

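Csf1, Csf2, Il3, Lif and Osm encode secreted growth factors through which T cells can act on blood-forming and myeloid cells. Their probe sets were taken as all those annotated to 1 of these symbols and no other, which gave 9 probe sets for 5 genes, out of 45101 probe sets and 18193 genes on the arrays. Csf1 had 4 probe sets, Lif had 2, and Csf2, Il3 and Osm had 1 each. All 9 passed the filter on low values, but Il3 was above the array median on 4 of 10 arrays only.

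The series holds 10 Affymetrix Mouse430_2 arrays of mouse splenic CD4+ T cells, 5 groups with 2 arrays each. All cells came from mice with the DEREG transgene, in which the Foxp3 promoter drives a GFP reporter, on a background given as Balb/c, and all were stimulated through CD3 and CD28, infected with a retrovirus that carries an NGFR marker, and sorted for NGFR. Regulatory T cells (Treg) depend on the transcription factor Foxp3, which is mutated in scurfy mice and does not work there. The Scurfy Foxp3 group is GFP+ cells of DEREG/Scurfy mice labelled as infected with the Foxp3 virus, and the Scurfy mock group is the same kind of cell labelled mock. The Treg group is GFP+ cells of DEREG mice with the empty virus. The Tconv Foxp3 group is GFP- conventional T cells of DEREG mice labelled as infected with the Foxp3 virus, and the Tconv mock group is GFP- cells of DEREG mice with the empty virus. The assignment of 4 arrays to DEREG/Scurfy reads an abbreviation in the sample descriptions, while the strain entry names DEREG for all 10. Because the GFP reporter is a transgene, GFP+ cells of scurfy mice are cells that use the Foxp3 promoter without a working Foxp3 protein, and the age of the mice and the number pooled per array are not given in the labels.

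Csf1 (macrophage colony-stimulating factor) directs the survival and growth of monocytes and macrophages through the receptor Csf1r. Csf2 (granulocyte-macrophage colony-stimulating factor) and Il3 (IL-3, a multilineage growth factor) bind their own alpha chains and signal through a shared beta chain, Csf2rb, and the mouse has a second, Il3-specific beta chain, Csf2rb2. Lif (leukaemia inhibitory factor) and Osm (oncostatin M) belong to the IL-6 family and signal through gp130, encoded by Il6st, paired with Lifr or Osmr. All of these receptors act through JAK kinases and STAT factors apart from Csf1r, which is itself a kinase. Csf2 and Il3 are classical genes of T cell activation, switched on by NFAT and AP-1 factors, and mouse Lif is known as a product of activated T cells.

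Csf2 and Il3 lie next to each other on chromosome 11 with 0 annotated genes between them, and Lif and Osm are a second adjacent pair on that chromosome. Csf1 lies on chromosome 3. The 250 bases upstream of the transcription start are shown for the 4 genes found in the RefSeq promoter table (GRCm38.p6), since they let the letters of known activation motifs be set beside the levels that follow. The windows are chr3:107760470-107760719 on the minus strand for Csf1, chr11:54249900-54250149 on the minus strand for Csf2, chr11:54267280-54267529 on the minus strand for Il3 and chr11:4257318-4257567 on the plus strand for Lif. Each is written 5′ to 3′ along the gene, and capitals mark matches on either strand to GGAAA (NFAT core), TGANTCA (AP-1), TGTGGT (Runx), AGATAA (motif of GATA factors) or GTAAACA (forkhead).
Csf1 promoter: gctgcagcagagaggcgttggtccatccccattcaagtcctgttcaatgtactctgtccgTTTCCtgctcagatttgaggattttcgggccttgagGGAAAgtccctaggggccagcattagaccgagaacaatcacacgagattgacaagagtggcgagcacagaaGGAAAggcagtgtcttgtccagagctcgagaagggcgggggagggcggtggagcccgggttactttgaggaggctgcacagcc
Csf2 promoter: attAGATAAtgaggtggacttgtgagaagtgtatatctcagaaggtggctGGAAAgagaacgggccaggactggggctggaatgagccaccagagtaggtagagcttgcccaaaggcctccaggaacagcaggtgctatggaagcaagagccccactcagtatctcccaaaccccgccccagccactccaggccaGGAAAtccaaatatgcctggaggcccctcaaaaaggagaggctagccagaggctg
Il3 promoter: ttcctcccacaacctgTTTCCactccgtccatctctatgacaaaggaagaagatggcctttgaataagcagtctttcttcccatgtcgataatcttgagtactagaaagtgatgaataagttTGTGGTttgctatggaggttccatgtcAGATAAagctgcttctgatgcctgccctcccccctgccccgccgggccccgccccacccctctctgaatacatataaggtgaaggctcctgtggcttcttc
Lif promoter: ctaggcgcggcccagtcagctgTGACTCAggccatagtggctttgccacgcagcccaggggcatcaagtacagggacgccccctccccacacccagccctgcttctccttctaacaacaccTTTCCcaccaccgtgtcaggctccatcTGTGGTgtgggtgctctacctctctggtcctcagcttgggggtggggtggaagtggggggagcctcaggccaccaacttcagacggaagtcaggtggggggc
Csf1 had 3 NFAT cores, starting 190, 154 and 83 bases before the start site, and none of the other motifs. Csf2 had 2 NFAT cores, at 200 and 55 bases, and a GATA match at 247 bases. Il3 had 1 NFAT core at 234 bases, a Runx match at 128 and a GATA match at 101, and Lif had an AP-1 match at 228, an NFAT core at 129 and a Runx match at 102. No forkhead match was found in these 4 windows. Of 32851 windows of this length, 55.6% held the NFAT core, 6.75% the AP-1 motif, 14% the Runx, 9.99% the GATA and 3.17% the forkhead motif, so a match to the NFAT core was common. No 2 of the 5 motifs overlapped at a match shown, and a match is a description of letters only.

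Levels are deposited intensities on a linear scale, 1 per probe set on each array. Median intensity lay between 18.8 and 36.5 over the 10 arrays, and the correlation between the 2 arrays of a group, over 26094 probe sets tested, lay between 0.922 in Scurfy mock and 0.973 in Tconv Foxp3. The 8 pan T cell markers with a probe set were above the array median on all 10 arrays, with sums between 20440 and 29100. The sum of 6 Treg markers lay between 18770 and 24400 on the 6 GFP+ arrays and between 6976 and 11670 on the 4 GFP- arrays, and that of 5 CD8 T and NK cell markers between 71.8 and 331 over all arrays. Foxp3 read 948 and 691 on Scurfy Foxp3 arrays, 1188 and 1114 on Scurfy mock arrays, 2130 and 3128 in Treg, 18.04 and 18.9 in Tconv Foxp3 and 53.9 and 35.9 in Tconv mock. The probe set thus did not register the virus in either group labelled Foxp3. Its position relative to the sequence in the virus is not given in the sources used here, so the Foxp3 label of 4 arrays has no check in these values and stays a label below.

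Differences are log2 differences of group means of log2(intensity + 16), with the standard error (SE) from a limma fit to all 10 arrays, and a probe set was called at a Benjamini-Hochberg adjusted p under 0.05 over 26094 probe sets. The added 16 shrinks the differences of dim probe sets. Nothing in the labels says that the 2 arrays of a group come from separate animals or cultures, so the p-values measure the spread between these arrays only. In Treg against Tconv mock, 2 of 9 member probe sets were called, both for Lif and both lower, where 1.08% of all probe sets were called. In Scurfy mock against Treg, 1 of 9 was called, for Lif and higher, where 0.199% of all probe sets were called. Both shares of members rest on 1 gene.

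In the other 6 comparisons limma called 0 of 9 member probe sets. Counts at an unadjusted p under 0.05 are given beside these, each with the share of all probe sets under the same level. In Scurfy mock against Tconv mock, 0.326% of all probe sets were called, and 3 of 9 members were under the unadjusted level, against 12.6% of all. In Tconv Foxp3 against Tconv mock, 0.0192% were called, and 7 of 9 members were under it, against 13.1% of all. In Scurfy Foxp3 against Treg, 0.115% were called, and 8 of 9 members were under it, against 9.19% of all. In Scurfy Foxp3 against Scurfy mock, 0% were called, and 0 of 9 members were under it, against 4.25% of all. In the 6 GFP+ against the 4 GFP- arrays, 2.98% were called, and 2 of 9 members were under it, a share near the 19.3% of all. For the difference between the Foxp3-label effects in scurfy and in conventional cells, 0% were called, and 5 of 9 members were under it, against 7.92% of all. In the comparisons with called members, 8 of 9 were under it in Treg against Tconv mock, against 16.8% of all, and 7 of 9 in Scurfy mock against Treg, against 7.82% of all. The 9 probe sets stand for 5 genes, so these counts are not of independent members. They include Il3 in Treg and in Scurfy mock against Tconv mock and in the difference between the Foxp3-label effects. Il3 passed the filter only through arrays where it is high, so its part in these counts gives no support. Below, groups whose arrays do not overlap are named as a description only, since the share of all probe sets without overlap was not counted. Comparisons that share a group, such as those against Tconv mock or against Treg, are not independent of each other.

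The members varied widely over the 10 arrays. The range of log2 values was 5.69 for Csf2, and 0.349% of the probe sets tested had a wider one. It was 4.38 and 3.77 for the Lif probe sets, 4.32 for Il3, 3.31 to 3.99 for the Csf1 probe sets and 2.30 for Osm, for which 11.2% of probe sets tested had a wider range. The median difference of the 9 member probe sets from Tconv mock was -1.51 in Treg, against 0.26 for all probe sets tested. Their median difference from Treg was 2.26 in Scurfy mock and 2.49 in Scurfy Foxp3, against -0.02 and -0.06 for all. Csf1 has 4 of the 9 probe sets, and each of these member medians is the value of a Csf1 probe set. Osm differed in the other direction each time, as did Il3 in Scurfy mock. Members were chosen with earlier results of these data known, so these medians are descriptions only. The median of all probe sets stood 0.24 to 0.26 above 0 in the 3 comparisons against Tconv mock, and lay between -0.03 and 0.02 when arrays were scaled to a common 75th percentile or quantile normalised. No member difference changed sign under either scaling.

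**Figure D1:**
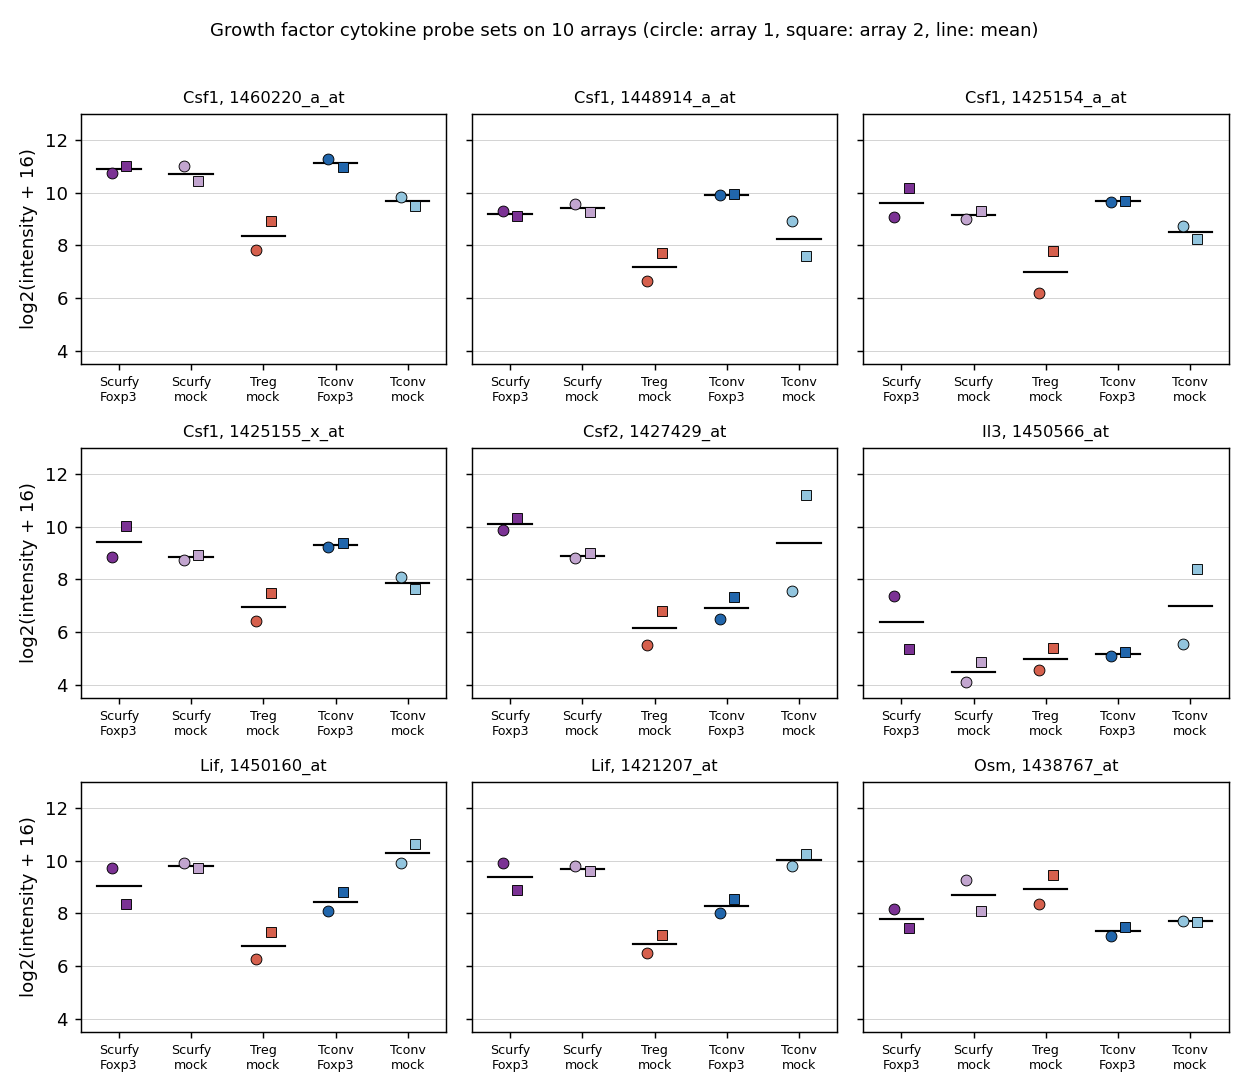
Log2(intensity + 16) of the 9 probe sets of Csf1, Csf2, Il3, Lif and Osm on the 10 arrays, with circles and squares for the 2 arrays of each group and lines for group means. Both Lif probe sets and all 4 Csf1 probe sets are lowest in Treg, Csf2 is split between the 2 Tconv mock arrays, and Osm has its highest means in Treg and Scurfy mock.

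Lif was the member with the clearest group difference. At probe set 1450160_at it read 833 and 309 on Scurfy Foxp3 arrays, 939.5 and 821 on Scurfy mock arrays, 60.7 and 139 in Treg, 256 and 432.5 in Tconv Foxp3 and 957 and 1585 in Tconv mock. At 1421207_at it read 949 and 452 on Scurfy Foxp3 arrays, 865 and 757 on Scurfy mock arrays, 73.1 and 129.5 in Treg, 240.4 and 357 in Tconv Foxp3 and 868 and 1202 in Tconv mock. Both Treg arrays were below all 8 others at both probe sets, and both Tconv Foxp3 arrays were below both Tconv mock and both Scurfy mock arrays. The 2 probe sets followed each other with a Pearson r of 0.983 over the 10 arrays.

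Lif was lower in Treg than in Tconv mock by a log2 difference of -3.52 (SE 0.52, adjusted p = 0.0154) at 1450160_at, which is 11.4-fold, and of -3.19 (SE 0.41, adjusted p = 0.0098) at 1421207_at, which is 9.12-fold. In such sorted bulk samples, fewer Lif-producing cells and less Lif RNA per cell cannot be told apart. Scurfy mock cells, which share the active Foxp3 promoter with Treg, had 7.25-fold more Lif than Treg at 1421207_at (2.86, SE 0.41, adjusted p = 0.0326) and a difference of 3.04 (SE 0.52, adjusted p = 0.063) at 1450160_at. The Lif calls against Tconv mock were lost at both probe sets without either Treg array, where the differences lay between -4.02 and -2.83, and without Tconv mock array 2, at -3.16 and -2.96. At 1450160_at the call was also lost without Tconv mock array 1 (-3.88, adjusted p = 0.0505), with a pseudocount of 1 (adjusted p = 0.0538) and with no filter (adjusted p = 0.0709). The call in Scurfy mock against Treg was lost without Scurfy mock array 1, either Treg array or either Tconv Foxp3 array, with differences between 2.50 and 3.21. It was also lost with the replicate number as a block (adjusted p = 0.0606), array weights (0.0566), the compared groups alone (0.148), a pseudocount of 1 (0.129) and no filter (0.127), so that it passed in 10 of 20 alternatives.

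The remaining Lif differences did not pass the test. The difference between the Foxp3-label effects in scurfy and conventional cells was 1.07 (adjusted p = 0.692) and 1.45 (adjusted p = 0.624). In Tconv Foxp3 against Tconv mock they were -1.84 (SE 0.52, adjusted p = 0.232) and -1.75 (SE 0.41, adjusted p = 0.184), and the groups did not overlap. In Scurfy Foxp3 against Treg they were 2.27 (adjusted p = 0.176) and 2.56 (adjusted p = 0.0698), also without overlap. Scurfy mock and Tconv mock differed by -0.48 and -0.33, less than the SE of the fit, though their arrays did not overlap. Scurfy Foxp3 overlapped Scurfy mock at both probe sets. By group means, Lif was ordered Tconv mock, Scurfy mock, Scurfy Foxp3, Tconv Foxp3 and Treg at both probe sets. No difference between neighbours among the first 3 of these passed the test. Scurfy Foxp3 and Tconv Foxp3 overlapped at 1450160_at, and Tconv Foxp3 stood above Treg in both arrays at both probe sets, pairs that were not tested.

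Osm, the other gp130 cytokine and the chromosomal neighbour of Lif, had a different order. It read 268 and 156 on Scurfy Foxp3 arrays, 606 and 256 on Scurfy mock arrays, 312 and 687 in Treg, 127 and 163 in Tconv Foxp3 and 196 and 189.7 in Tconv mock. Both Treg arrays and both Scurfy mock arrays were above all 4 GFP- arrays, while Scurfy Foxp3 had 1 array above and 1 among them. Treg differed from Tconv mock by 1.203 (SE 0.48, adjusted p = 0.249), and Scurfy mock from Tconv mock by 0.98 (SE 0.48, adjusted p = 0.434). Scurfy Foxp3 differed from Treg by -1.12 (SE 0.48, adjusted p = 0.517) without overlap. Labelled Foxp3 against mock, the difference was -0.90 (adjusted p = 1) in scurfy and -0.38 (adjusted p = 0.759) in conventional cells. With groups pooled, the 6 GFP+ arrays ranged from 156 to 687 and the 4 GFP- arrays from 127 to 196, a difference of 0.95 (SE 0.31, unadjusted p = 0.0126, adjusted p = 0.137). Osm thus passed the test in none of the 8 comparisons, and its highest array within Treg and within Scurfy mock stood more than 1 log2 unit above the other array of that group.

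Csf2 had the widest range of the members. It read 922 and 1290 on Scurfy Foxp3 arrays, 434 and 490.3 on Scurfy mock arrays, 29.7 and 93.9 in Treg, 74.7 and 145 in Tconv Foxp3 and 170.4 and 2335 in Tconv mock. The 4 scurfy arrays were all above the 2 Treg and the 2 Tconv Foxp3 arrays, and the 2 Tconv mock arrays stood 3.66 log2 units apart, 1 below and 1 above every scurfy array. Every GFP+ scurfy array thus held Csf2 signal well above that of Treg, with a difference of 3.97 (SE 0.94, adjusted p = 0.189) in Scurfy Foxp3 and of 2.75 (SE 0.94, adjusted p = 0.432) in Scurfy mock, neither of which passed the test. With the compared groups alone, Scurfy Foxp3 against Treg passed for Csf2 (adjusted p = 0.018). It did not pass under the other alternatives that kept every array. The difference of Treg from Tconv mock was -3.22 (SE 0.94, adjusted p = 0.138). It was -5.05 and passed the test (adjusted p = 0.0147) without Tconv mock array 1, and it was -1.40 without Tconv mock array 2.

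The arrays labelled Foxp3 differed from mock in opposite directions for Csf2 in the 2 kinds of starting cell. In conventional cells both Foxp3-labelled arrays read below both mock arrays, a difference of -2.45 (SE 0.94, adjusted p = 0.327), which was -0.62 without Tconv mock array 2 and -4.28 without array 1. In scurfy cells both Foxp3-labelled arrays read above both mock arrays, a difference of 1.21 (SE 0.94, adjusted p = 1). The difference between these effects was 3.66 (SE 1.33, unadjusted p = 0.0207, adjusted p = 0.624), and it was 1.84 without Tconv mock array 2. Csf2 in Scurfy mock and Tconv mock overlapped, and the difference of -0.47 became 1.36 without that array.

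Il3 was dim. It read 151 and 25.1 on Scurfy Foxp3 arrays, 0.954 and 13.3 on Scurfy mock arrays, 7.46 and 26.3 in Treg, 18.3 and 21.9 in Tconv Foxp3 and 30.9 and 323 in Tconv mock. Array 2 of Tconv mock and array 1 of Scurfy Foxp3 stood apart, and the other 8 arrays lay at or below 30.9. Il3 was above the array median only on the Scurfy Foxp3 and Tconv mock arrays. The probe set passed the filter only through arrays where it is high, so the order of its arrays is not read further. The difference of Treg from Tconv mock was -2.00 (SE 0.87, adjusted p = 0.286) and became -0.57 without Tconv mock array 2, so a statement on Il3 in conventional cells rests on 1 array. The differences from Tconv mock were -2.50 (adjusted p = 0.308) in Scurfy mock and -1.81 (adjusted p = 0.413) in Tconv Foxp3, and Scurfy Foxp3 differed from Scurfy mock by 1.89 (adjusted p = 1). The difference between the Foxp3-label effects in scurfy and conventional cells was 3.70 (SE 1.24, adjusted p = 0.607). It was 2.27 without Tconv mock array 2. Il3 passed the filter through Scurfy Foxp3 and Tconv mock, the groups that raise this difference, so its tests give no support. Csf2 and Il3 had a Pearson r of 0.628 and a Spearman rho of 0.503 over the 10 arrays.

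Csf1 had its lowest level in Treg at all 4 probe sets. At 1460220_a_at, the brightest, it read 1715 and 2044 on Scurfy Foxp3 arrays, 2038 and 1361 on Scurfy mock arrays, 208 and 475 in Treg, 2486 and 2014 in Tconv Foxp3 and 904.5 and 703 in Tconv mock. At 1448914_a_at it read 618 and 533 on Scurfy Foxp3 arrays, 754.5 and 594 on Scurfy mock arrays, 82.9 and 192 in Treg, 956 and 966 in Tconv Foxp3 and 466 and 178 in Tconv mock. Both Treg arrays were below all other arrays at the first probe set, and at the second 1 Treg array overlapped 1 Tconv mock array. At 1425154_a_at the Treg arrays read 57.1 and 204, and at 1425155_x_at 69.1 and 161, below all 8 other arrays in both cases. The other arrays ran from 286 to 1141 and from 183 to 1018 at these probe sets. Pearson r between Csf1 probe sets lay between 0.889 and 0.979 over the 10 arrays.

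Against Tconv mock, Csf1 in Treg differed by -1.51 to -0.93 over the 4 probe sets, with adjusted p between 0.158 and 0.335, and by -2.30 to -0.40 with 1 array left out. Against Treg, it differed by 1.90 to 2.34 in Scurfy mock and by 2.04 to 2.64 in Scurfy Foxp3, without overlap. The 4 probe sets stand for 1 gene and followed each other, so they are not separate support. The smallest adjusted p values were 0.0629 in Scurfy mock and 0.067 in Scurfy Foxp3, both at 1460220_a_at, so no Csf1 difference passed the test. That probe set did pass in both comparisons when arrays were scaled to a common 75th percentile (2.37, adjusted p = 0.0301, and 2.58, adjusted p = 0.0302) or quantile normalised (2.32, adjusted p = 0.0456, and 2.49, adjusted p = 0.0442).

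In the conventional cells labelled Foxp3, Csf1 lay on the other side of Tconv mock from Lif and Csf2. The differences were 1.19 to 1.68 over the 4 Csf1 probe sets (adjusted p between 0.219 and 0.374), which stand for 1 gene. Those of Csf2 and both Lif probe sets were below 0, and none of these differences passed the test. Within scurfy cells the Csf1 differences of Foxp3-labelled from mock arrays lay between -0.22 and 0.59 and all 4 overlapped. The difference between the Foxp3-label effects lay between -1.89 and -0.71 over the 4 probe sets (adjusted p between 0.614 and 0.781). Scurfy mock differed from Tconv mock by 0.65 to 1.17 over the 4 probe sets (adjusted p between 0.336 and 0.622).

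**Figure D2:**
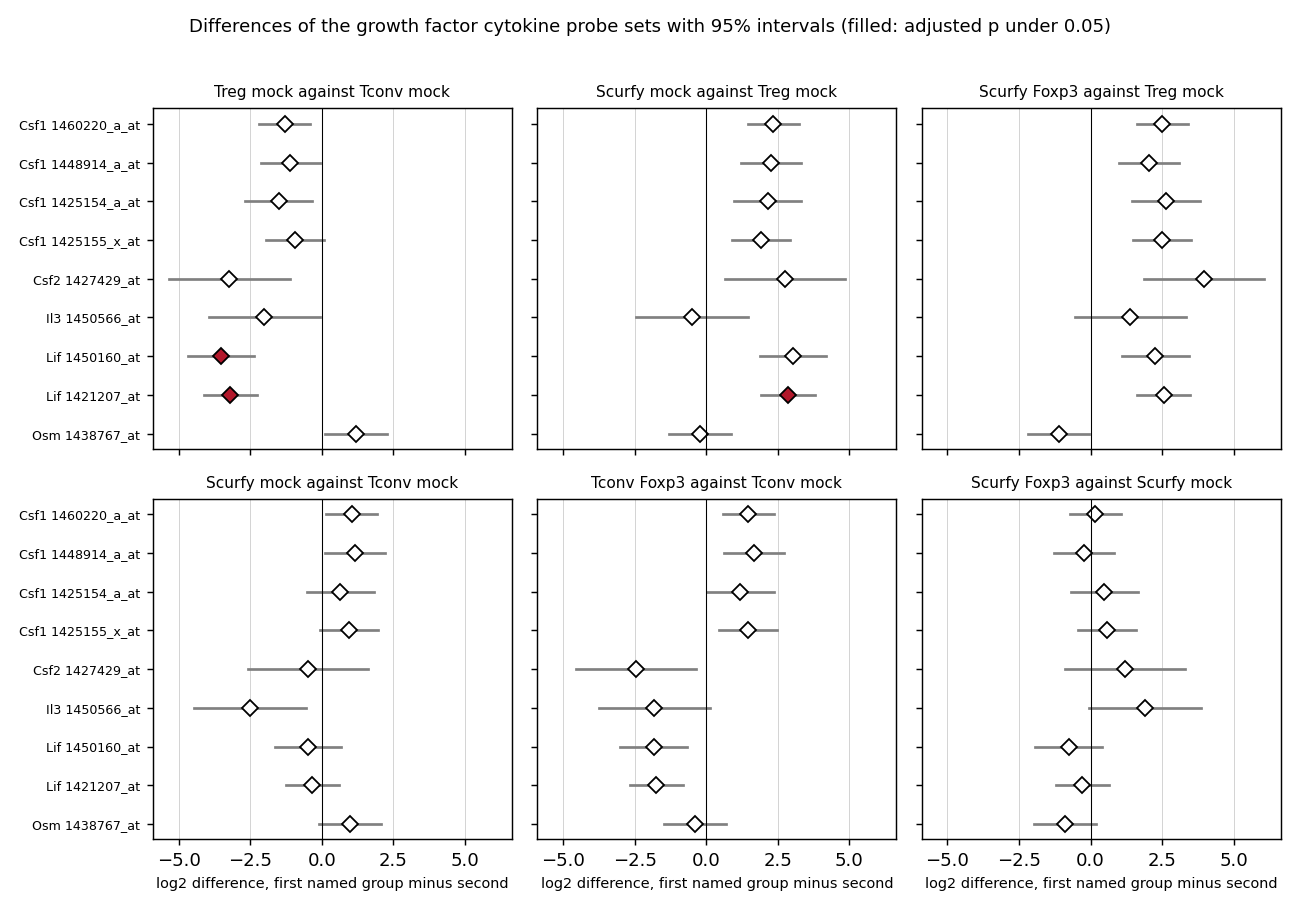
Log2 differences of the 9 probe sets in 6 comparisons, first named group minus second, with 95% intervals from limma and filled marks for an adjusted p under 0.05. The 3 filled marks are Lif, at -3.52 and -3.19 in Treg against Tconv mock and at 2.86 in Scurfy mock against Treg. All Csf1 marks lie right of 0 in Tconv Foxp3 against Tconv mock, where Csf2, Il3, Lif and Osm lie left of it.

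Grouped by starting cell alone, the 6 GFP+ arrays overlapped the 4 GFP- arrays for Csf1, Csf2, Il3 and Lif, with differences between -0.83 and 0.24 and adjusted p of at least 0.215. The largest of these was Lif at 1450160_at (-0.83, SE 0.34, adjusted p = 0.215).

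Across the 10 arrays, which share groups and so are not independent points, the pattern of Csf2 was most like those of Il13 (Pearson r = 0.954), Il5 (0.914), Casp4 (0.887), Fcmr (0.886) and Il4 (0.883), out of 10781 genes compared. Il13, Il5 and Il4 are type 2 helper cytokines that lie in the same stretch of chromosome 11 as Csf2 and Il3. Il13 read 5242 and 4049 on Scurfy Foxp3 arrays, 1423 and 5227 on Scurfy mock arrays, 10.4 and 98.8 in Treg, 60.6 and 114 in Tconv Foxp3 and 229.7 and 5773 in Tconv mock. Il5 read 1653 and 1139 on Scurfy Foxp3 arrays, 52.9 and 1351 on Scurfy mock arrays, 2.97 and 5.41 in Treg, 11.5 and 13.7 in Tconv Foxp3 and 48.2 and 1871 in Tconv mock. Both were low on all Treg and Tconv Foxp3 arrays, high on both Scurfy Foxp3 arrays and split within Scurfy mock and within Tconv mock. Array 2 was the higher one of Tconv mock for Csf2, Il3, Il13, Il5 and Il4 alike.

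Of 11 neighbours of Il3 and Csf2 on the chromosome, 8 were tested, and limma called 0 in any of the 8 comparisons, with an unadjusted p under 0.05 in 20 of 64 tests, against 11.4% of the tests of all probe sets in these comparisons. In Treg against Tconv mock, Il13 differed by -4.44 (SE 1.26, adjusted p = 0.13) and Il5 by -4.11 (SE 1.503, adjusted p = 0.215), and Slc22a5, a carnitine transporter gene of the region, by 1.07 (SE 0.35, adjusted p = 0.179). The median of the 8 was -1.20, against 0.26 for all probe sets tested. In Scurfy Foxp3 against Treg, Il13 differed by 6.39 (SE 1.26, adjusted p = 0.118), Il5 by 6.11 (SE 1.503, adjusted p = 0.206) and Il4 by 5.92 (SE 1.59, adjusted p = 0.255), and the median of the 8 was 0.93. Irf1, an interferon-regulated transcription factor gene between the cytokine genes, differed by 1.47 (SE 0.42, adjusted p = 0.219) in Scurfy mock against Tconv mock.

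**Figure D3:**
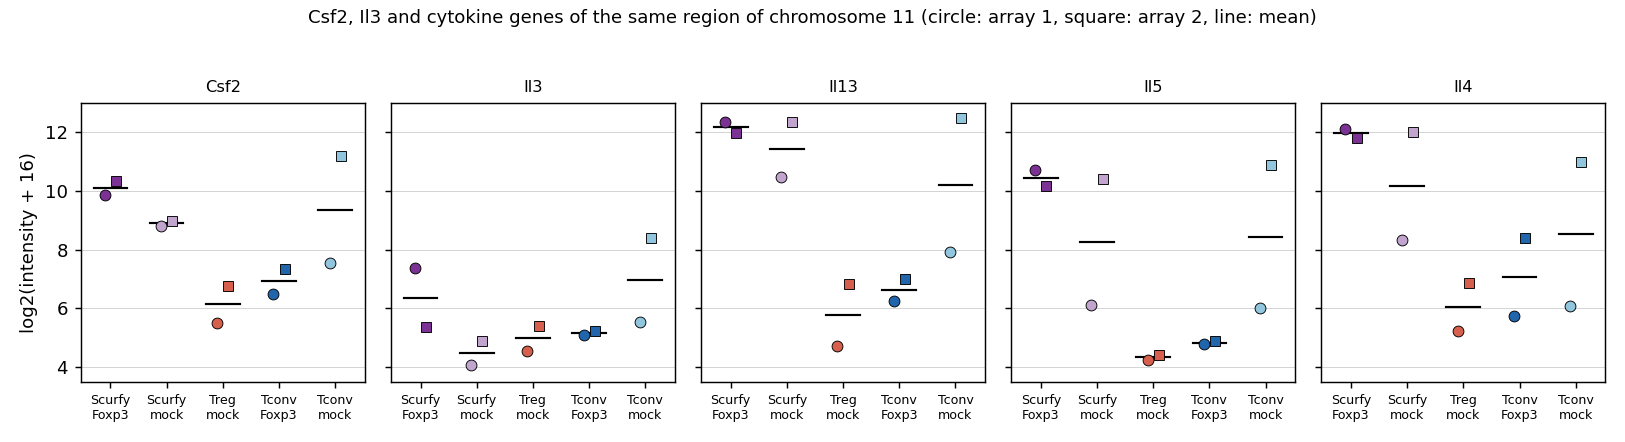
Log2(intensity + 16) of Csf2 and Il3 and of Il13, Il5 and Il4 from the same region of chromosome 11 on the 10 arrays, with circles and squares for the 2 arrays of each group and lines for group means. In all 5 panels array 2 of Tconv mock lies far above array 1, and Csf2, Il13 and Il5 are low on the Treg and Tconv Foxp3 arrays.

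The other members had other neighbours in pattern, again over 10 arrays and 10781 genes. Those of Csf1 were Hyou1, an endoplasmic reticulum chaperone gene (Pearson r = 0.931), Cpped1 (0.925), Yipf2 (0.921), Ssr4 (0.914) and Kifc1 (0.908). Those of Lif were Nmt1, an N-myristoyltransferase gene (0.924), Slc1a4, a neutral amino acid transporter gene (0.924), Tlcd2 (0.923), Tent2 (0.905) and Stx16 (0.904). Those of Osm were Bicral (0.966), Tecpr1 (0.964), Arhgap45 (0.952), Myl12b (0.947) and Ahcyl2 (0.939), and those of the dim Il3 were Col5a3 (0.859), Tkfc (0.848), Caprin2 (0.822), Bcl2l2 (0.818) and Tmc4 (0.818). No member was among the 5 nearest of another, and among members the highest r was 0.74 between Csf2 and Lif.

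The receptors of these cytokines were then examined in the same cells. Il6st, the gp130 chain that Lif and Osm use, read 573 and 621 on Scurfy Foxp3 arrays, 683 and 441 on Scurfy mock arrays, 878 and 1684 in Treg, 663 and 711 in Tconv Foxp3 and 339.6 and 110.2 in Tconv mock. Both Treg arrays were above all others and both Tconv mock arrays below all others. Il6st was higher in Treg than in Tconv mock by 2.54 (SE 0.49, adjusted p = 0.0453), where 1.08% of all probe sets were called. It was the only receptor gene called in the 8 comparisons. The call lies close to the threshold of 0.05. Single-gene alternatives were run for member probe sets only, so neither this call nor that of Socs2 below was checked under them. Il6st differed by 1.73 (SE 0.49, adjusted p = 0.233) in Tconv Foxp3 and by 1.42 (SE 0.49, adjusted p = 0.308) in Scurfy mock, both against Tconv mock. Of the 8 receptor genes 6 were tested, and the median of their differences in Treg against Tconv mock was -0.31. An unadjusted p under 0.05 was found in 16 of 48 tests, against 11.4% of the tests of all probe sets.

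The partner chains of gp130 were near or below the array background. Lifr read 18.4 or less and Osmr 30.2 or less on all 10 arrays, and neither passed the filter on low values. Csf1r, the receptor of Csf1 and a marker of macrophages, read between 10.97 and 31.5, and Csf2ra, the alpha chain for Csf2, between 11.4 and 34.6.

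The beta chains for Csf2 and Il3 had their highest levels in 1 group. Csf2rb read 350.2 and 260 on Scurfy Foxp3 arrays, 4.39 and 25.1 on Scurfy mock arrays, 18.4 and 104 in Treg, 7.48 and 17.1 in Tconv Foxp3 and 68.8 and 6.75 in Tconv mock. Csf2rb2 read 131 and 105 on Scurfy Foxp3 arrays, 2.23 and 36.1 on Scurfy mock arrays, 6.32 and 54.1 in Treg, 0.602 and 1.01 in Tconv Foxp3 and 60.9 and 20.5 in Tconv mock. Both Scurfy Foxp3 arrays were above all 8 other arrays for both genes. Against Scurfy mock, Csf2rb differed by 3.46 (SE 0.70, unadjusted p = 0.000633, adjusted p = 0.446) and Csf2rb2 by 2.11 (SE 0.62, adjusted p = 1). The difference between the Foxp3-label effects was 4.11 (SE 0.99, adjusted p = 0.512) for Csf2rb and 3.77 (SE 0.88, adjusted p = 0.498) for Csf2rb2. Il3ra, the alpha chain for Il3, read 13.9 and 33.5 in Scurfy Foxp3 against 105 and 52.3 in Scurfy mock, a difference of -1.24 (SE 0.49, adjusted p = 1).

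Markers of B cells and of myeloid cells also had their highest sums on the Scurfy Foxp3 arrays. The summed intensity of 6 B cell markers was 725 and 1730 on Scurfy Foxp3 arrays, 75.6 and 332 on Scurfy mock arrays, 54.0 and 555 in Treg, 286 and 487 in Tconv Foxp3 and 47.6 and 39.3 in Tconv mock, where all 6 were below the array median. The sum of 10 myeloid markers was 389.8 and 507 in Scurfy Foxp3, with 7 of 10 below the median, and 87.7 to 284 over the other 8 arrays. The sum of 7 mast cell and basophil markers was 133 and 154 in Scurfy Foxp3, with 5 of 7 below the median, and 44.5 to 212 over the other arrays. The part of these cells in the Csf2rb and Csf2rb2 levels, and in the Csf2 and Lif levels, was not tested.

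**Figure D4:**
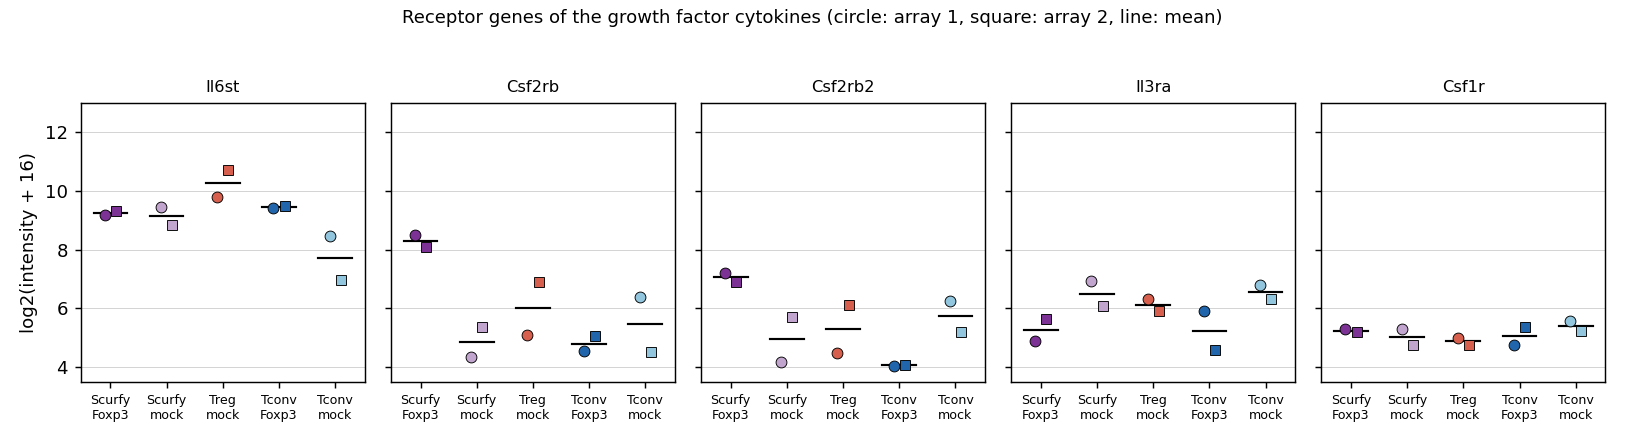
Log2(intensity + 16) of 5 receptor genes of the growth factor cytokines on the 10 arrays, with circles and squares for the 2 arrays of each group and lines for group means. Il6st is highest in Treg and lowest in Tconv mock, Csf2rb and Csf2rb2 are highest in Scurfy Foxp3, and Csf1r lies between intensities of 10.97 and 31.5 throughout.

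Of 15 signalling genes downstream of these receptors, 14 had a probe set, and all 14 were tested. Socs2 alone was called, in 1 of the 8 comparisons, while 11 of 112 tests had an unadjusted p under 0.05, a share near the 11.4% of the tests of all probe sets. It is an inhibitor of cytokine signalling that STAT5 induces, and it was higher on GFP+ than on GFP- arrays by 1.44 (SE 0.26, adjusted p = 0.0227). It read 1743 and 1453 on Scurfy Foxp3 arrays, 1271 and 1752 on Scurfy mock arrays, 1313 and 1996 in Treg, 671 and 525 in Tconv Foxp3 and 803.5 and 364 in Tconv mock, so all 6 GFP+ arrays were above all 4 GFP- arrays. Socs3, the inhibitor that gp130 cytokines induce through STAT3, differed by -1.499 (SE 0.41, adjusted p = 0.221) in Tconv Foxp3 against Tconv mock. In Treg against Tconv mock the median of the 14 was -0.11, against 0.26 for all probe sets tested.

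The remaining cytokine families were sparse on these arrays, and limma called 0 of their 4 tested genes in the 8 comparisons, with an unadjusted p under 0.05 in 6 of 16 tests in each family, against 11.4% of the tests of all probe sets. Among 7 other cytokines that act through gp130, 5 had a probe set and 2 were tested. Ebi3, the chain shared by IL-27 and IL-35, read 808.5 and 510.1 on Scurfy Foxp3 arrays, 477.5 and 716 on Scurfy mock arrays, 80.7 and 358 in Treg, 47.3 and 9.17 in Tconv Foxp3 and 383.5 and 517 in Tconv mock, and it differed by -3.53 (SE 0.63, adjusted p = 0.12) in Tconv Foxp3 against Tconv mock. Clcf1, a cardiotrophin-like cytokine, differed by 1.84 (SE 0.53, adjusted p = 0.133) in Treg against Tconv mock. Among 10 other hematopoietic growth factors, 7 had a probe set and 2 were tested, Il5 and Il9, and Il9 differed by 2.36 (SE 0.96, adjusted p = 0.5) in Scurfy Foxp3 against Treg. The 3 untested gp130 cytokines Il6, Il11 and Ctf1 read 31.9 or less on every array.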

How the data were processed

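Per the submitters' processing notes, Affymetrix Expression Console was used. The deposited value is a linear intensity for each probe set on each array. How probes were summarised and scaled, and in which version, is not given in the sources used here, and array medians differ. Groups come from the sample titles and descriptions.

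Values were converted to log2(intensity + 16) with no further normalization. Of 45101 probe sets, 64 controls were left out, and 26094 that exceeded the array median on 2 or more arrays were tested. A single symbol stood at 34958 probe sets, several at 932 and none at 9211. limma 3.58.1 in R 4.3.3 (lmFit, contrasts.fit, eBayes) was fitted to all 10 arrays, with 5 residual and 4.72 prior degrees of freedom, two-sided, with Benjamini-Hochberg adjustment over all probe sets tested in a comparison. On simulated data of the size of Treg against Tconv mock, 14 of 67 probe sets changed by 1 log2 unit were recovered, 65 of 67 changed by 2 and 61 of 66 changed by 3, with 9 false among 149 calls. Every simulated probe set varied with the same standard deviation of 0.358 log2 units. The SE of the members in that comparison lay between 0.40 and 0.94, so these recovered shares do not apply to them. The number of arrays limits the precision.

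Members and lists were chosen with earlier results of these data known. All member probe sets are named. Each list gene stands for its brightest single-symbol probe set, and called genes and up to 3 others with the smallest p could be named. Beyond this rule, all 8 receptors and the untested Il6, Il11 and Ctf1 are named, chosen after their values were seen. Likeness is the Pearson r over the 10 arrays, and the 5 highest are named for each member's brightest probe set. The lists were receptors of the members, other gp130 cytokines, other hematopoietic growth factors, JAK-STAT genes, activation factors, and chromosomal neighbours of Il3 and Csf2 and of Lif and Osm. Marker lists were pan T, CD8 T and NK, B, myeloid, mast and basophil, and Treg cells. The alternatives tried were a replicate block, the compared groups alone, array weights, trended and robust eBayes, 1 probe set per gene, a stricter filter (75th percentile) or none, pseudocounts of 1 or 64, quantile normalization, equal 75th percentiles on all arrays, and each array left out in turn.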

Additional observations from a re-analysis of the deposited data

Results flagged for a closer look

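Csf2 and the dim Il3 drew attention because the arrays labelled Foxp3 lay on opposite sides of their mock arrays in scurfy and in conventional cells. For Csf2, the effect in scurfy cells minus that in conventional cells was 3.66 log2 units (SE 1.33, adjusted p = 0.624). For Il3 it was 3.70 (SE 1.24, adjusted p = 0.607). For Csf2 every Foxp3-labelled scurfy array was above every scurfy mock array, and every Foxp3-labelled conventional array was below every conventional mock array. That order is the rule by which both genes were picked, so it gives no support beyond the picking. The share of all probe sets that meet this rule was not counted. Il3 was below the array median on both Scurfy mock and both Tconv Foxp3 arrays and passed the filter only through arrays where it is high, so the order of its arrays supports nothing. Neither difference passed the test. Without Tconv mock array 2 they were 1.84 for Csf2 and 2.27 for Il3.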

How the results depend on the processing

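Of 1463 differences of member probe sets under the alternatives, 1409 kept their direction and their side of the threshold, 26 passed it newly, 19 no longer passed it and 9 turned in sign. Many alternatives leave a difference as it is, so its direction could not turn there. These are the filters, 1 probe set per gene, the eBayes options, array weights, the compared groups alone and the replicate block. Leaving out an array of a group not compared is another. Most member differences were also far from the threshold, so the 1409 do not measure robustness. The number of member probe sets called in Treg against Tconv mock was 2. It was 1 with a pseudocount of 1, with no filter and with 1 probe set per gene. It ranged from 0 to 2 with 1 array left out, with 0 without either Treg array or without Tconv mock array 2. In Scurfy mock against Treg, 1 was called. The count was 3 under quantile normalization and under 75th percentile scaling, 2 for a pseudocount of 64 and 4 with trend and robust options. It was 0 with a pseudocount of 1, no filter, 1 probe set per gene, array weights or the compared groups alone, and 0 to 1 with 1 array left out. In Scurfy Foxp3 against Treg the count of 0 became 2 under quantile normalization and under 75th percentile scaling, 1 for a pseudocount of 64, 3 with trend and robust options, 1 with the compared groups alone, and 0 to 1 with 1 array left out. In Tconv Foxp3 against Tconv mock it became 4 with array weights, where calls over all 26094 probe sets went from 5 to 924. In Scurfy Foxp3 against Treg, calls over all probe sets went from 30 to 45 under quantile normalization and 64 under 75th percentile scaling. They were 38 for a pseudocount of 64, 60 with trend and robust options and 45 with the compared groups alone. More member calls thus came with more calls over all probe sets. With 1 probe set per gene, Lif at 1421207_at was not among the probe sets tested, so its calls drop out of the counts. The cause of the other moves was not tested.

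All 9 turns in sign came from leaving out 1 array, and each belongs to a difference that did not pass the test. With 1 array left out, Scurfy Foxp3 against Scurfy mock ranged from -0.073 to 1.03 for Csf1 at 1425154_a_at, from -0.12 to 0.46 at 1460220_a_at, and from -0.82 to 0.23 for Lif at 1421207_at. The GFP+ against GFP- difference ranged from -0.39 to 0.004 for Csf1 at 1425155_x_at and from -0.67 to 1.15 for Csf2. Csf2 in Scurfy mock against Tconv mock ranged from -2.30 to 1.36, and Osm in Scurfy mock against Treg from -0.82 to 0.37, with 0.33 without Treg array 2. The difference between the Foxp3-label effects ranged from -1.11 to 0.086 for Osm. A group left with 1 array was assumed to vary like the others.

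Over all probe sets, calls in Treg against Tconv mock split into 241 higher and 40 lower, and into 193 and 98 with quantile normalization and 250 and 145 under 75th percentile scaling. With 1 array left out the total ranged from 15 to 504. It was 111 with a pseudocount of 1, 96 with no filter, 127 with 1 probe set per gene, 464 with trend and robust options and 610 with array weights. In Scurfy mock against Treg the split was 13 and 39, against 30 and 46, and 43 and 63 under these scalings. Its total of 52 ranged from 4 without Treg array 1 to 172 without Scurfy mock array 2, and limma called 0 with the compared groups alone, where 1615 had an unadjusted p under 0.05. It was 11 with a pseudocount of 1, 21 with no filter, 29 with 1 probe set per gene, 30 with array weights, 31 with the replicate block and 113 with trend and robust options.

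The labels do not say that equal replicate numbers mark a shared day or litter, and with 2 numbers the deviations of equally numbered arrays correlated between -0.14 and 0.15. With the replicate number as a block, 2 member probe sets were called in Treg against Tconv mock and 0 in Scurfy mock against Treg, where Lif at 1421207_at had an adjusted p of 0.0606. Intensities near the array median limit what Il3, Lifr, Osmr and Csf1r can show.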

Other observations

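Transcription factors that T cell activation brings to the Csf2 and Il3 genes were measured in the same cells. Of 20 listed, 19 were tested and limma called 0 in any of the 8 comparisons, with an unadjusted p under 0.05 in 12 of 152 tests, below the 11.4% of the tests of all probe sets. Gata3, the factor that directs type 2 helper cells, read 1894 and 1191 on Scurfy Foxp3 arrays, 1533 and 1882 on Scurfy mock arrays, 304 and 869 in Treg, 1055 and 617 in Tconv Foxp3 and 1512 and 1463 in Tconv mock. Like Csf2, it was higher on all 4 scurfy arrays than on both Treg arrays and both Tconv Foxp3 arrays. Unlike Csf2, it was not split within Tconv mock, and it differed by -0.18 in Scurfy Foxp3 against Scurfy mock. Gata3 differed by 1.69 (SE 0.48, adjusted p = 0.283) in Scurfy mock against Treg and by -1.50 (SE 0.48, adjusted p = 0.17) in Treg against Tconv mock. Rel differed by -1.08 (SE 0.35, adjusted p = 0.382) in Scurfy mock against Treg. Runx1 differed by 1.155 (SE 0.32, adjusted p = 0.207) in Scurfy mock against Tconv mock. Batf, an AP-1 family factor, differed by -1.08 (SE 0.50, adjusted p = 0.308) in Treg against Tconv mock, and Nfatc1, an NFAT factor, by 1.03 (SE 0.37, adjusted p = 0.303) in Tconv Foxp3 against Tconv mock. The median of the 19 factors was 0.22 in Treg against Tconv mock, against 0.26 for all probe sets tested.

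Of 8 genes that neighbour Lif and Osm on chromosome 11, 7 were tested and limma called 0 in any of the 8 comparisons, with an unadjusted p under 0.05 in 4 of 56 tests, also below that share. Castor1, an arginine sensor of the mTORC1 pathway, read 199.8 and 151 on Scurfy Foxp3 arrays, 475 and 297.5 on Scurfy mock arrays, 50.5 and 177 in Treg, 73.7 and 95.9 in Tconv Foxp3 and 107 and 201 in Tconv mock. It differed by 1.79 (SE 0.50, adjusted p = 0.276) in Scurfy mock against Treg. The median of the 7 was 0.02 in Treg against Tconv mock, where both Lif probe sets were called lower.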
